A study of Mus musculus with 13 samples.

Results

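The S100 proteins and annexins described here are the genes S100a4, S100a6, S100a10, S100a11, S100a13, Anxa1, Anxa2, Anxa3, Anxa5 and Anxa6. They are 10 of the 30 protein-coding mouse genes whose symbol begins with S100 or Anxa, 5 of 18 S100 genes and 5 of 12 annexin genes. The 10 genes were selected on their measured expression in the same livers, that is with the fold changes after bile duct ligation already known, so their own values are given as a description and without a p-value. The other 20 genes of both families were found by symbol and are given with the test. Liver RNA of 3-month-old C57 mice was sequenced in 3 groups. The no BDL group held 5 mice without ligation, and the labels name neither a sham operation nor an injection for them. The miR-Ctrl BDL group held 4 mice whose bile duct was ligated and that received a control oligonucleotide, and the anti-miR-873-5p BDL group held 4 ligated mice that received an inhibitor of the microRNA miR-873-5p, injected on the third and the fifth day. Mice of these groups are called miR-Ctrl mice and anti-miR mice from here on. All 8 ligated mice shared surgery and injection, and ligation cannot be told apart from the injection of an oligonucleotide in the comparisons with no BDL.

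S100 proteins are small calcium sensors with EF-hand motifs that mostly act as dimers. Calcium exposes a surface on them that binds partner proteins, and several are also released from cells and act on receptors such as RAGE and TLR4. Annexins bind acidic phospholipids of membranes when calcium rises, and they serve in membrane repair, vesicle traffic and the shaping of the actin cortex. Both families meet in defined pairs, annexin A2 with S100A10, annexin A1 with S100A11 and annexin A11 with S100A6. In the liver many of them are low in hepatocytes and higher in bile duct cells, macrophages and mesenchymal cells, and ligation of the bile duct causes cholestasis with ductular reaction, inflammation and fibrosis.

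All 5 S100 members lie on chromosome 3, where 15 of the 18 S100 genes were placed by RefSeq (GRCm38). S100a13 (chr3:90514233-90524581), S100a4 (chr3:90603770-90606045) and S100a6 (chr3:90612894-90614414) are within the dense part of this cluster, and S100a11 (chr3:93520496-93526288) and S100a10 (chr3:93555117-93564645) lie further along the chromosome. The annexins are scattered, with Anxa5 at chr3:36448923-36475887, Anxa3 at chr5:96793385-96845968, Anxa2 at chr9:69453683-69491792, Anxa6 at chr11:54978953-55033471 and Anxa1 at chr19:20373434-20390671. Reads of 50 bases cannot always be assigned to 1 gene. Of the 50-base windows of the GENCODE M21 transcripts of S100a11, 41.1% also occur in another gene, namely the pseudogenes Gm12854, Gm7665 and Gm29240, and 47.4% of those of S100a4 occur in the overlapping gene model Gm42674. The share was 1.79% for Anxa3, 1.35% for Anxa2 and 0% for the other 6 members, and S100a11 and S100a4 counts are uncertain to that extent. The library kit does not keep the strand, so reads of S100a13 in the stretch where its RefSeq gene overlaps the oppositely oriented S100a1 cannot be told apart from reads of S100a1.

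The microRNA that the treatment blocks is shown with its seed (bases 2 to 8) in capitals, since a target would carry the complement GTTCCTG. The mouse sequence, from RefSeq (GRCm38.p6, chr4:36668556-36668576, minus strand), reads 5′ to 3′:
mmu-miR-873a-5p: gCAGGAACuugugagucuccu
None of the 10 members has this 7-base match in an annotated 3′UTR (GENCODE M21). In all, 14.9% of 21022 genes have one, with a median longest 3′UTR of 961 bases, while the longest 3′UTR of the members ran from 85 bases in S100a13 to 882 in Anxa3. Among the other 20 genes, S100a14, S100a16, S100b and Anxa11 have 1 match each, given here as 30 bases of 3′UTR with the match in capitals.
S100a14: ctccttccagtgtctGTTCCTGagtagggg
S100a16: gtgtgctctcgcaatGTTCCTGtctaattc
S100b: caggatgatcgctttGTTCCTGgaggacag
Anxa11: atgtttatctctccgGTTCCTGcactcact

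Promoter windows from 250 bases before to 50 bases after the RefSeq start were searched on both strands for AP-1 (TGANTCA), TEAD (GGAATG), GC box (GGGCGG) and TATA box (TATAAA) letters, and overlaps between motifs were not removed. The windows of S100a11 (chr3:93520246-93520545, plus strand) and Anxa2 (chr9:69453433-69453732, plus strand), the members with the largest fold changes in miR-Ctrl mice, are shown beside that of S100a13 (chr3:90514185-90514484, plus strand), the member with a negative log2 fold change under TMM scaling but not under library size alone, with AP-1 and TEAD letters in capitals.
S100a11: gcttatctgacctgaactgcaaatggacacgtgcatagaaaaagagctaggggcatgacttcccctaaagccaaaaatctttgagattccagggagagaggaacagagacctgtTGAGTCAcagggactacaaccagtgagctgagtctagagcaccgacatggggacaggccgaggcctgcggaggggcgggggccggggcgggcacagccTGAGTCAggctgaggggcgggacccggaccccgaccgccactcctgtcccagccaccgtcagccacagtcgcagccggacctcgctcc
Anxa2: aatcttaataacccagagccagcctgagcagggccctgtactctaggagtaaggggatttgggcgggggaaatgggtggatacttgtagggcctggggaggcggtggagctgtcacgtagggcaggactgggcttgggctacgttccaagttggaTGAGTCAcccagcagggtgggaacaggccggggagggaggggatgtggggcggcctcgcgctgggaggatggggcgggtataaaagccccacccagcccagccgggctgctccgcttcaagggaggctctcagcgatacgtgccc
S100a13: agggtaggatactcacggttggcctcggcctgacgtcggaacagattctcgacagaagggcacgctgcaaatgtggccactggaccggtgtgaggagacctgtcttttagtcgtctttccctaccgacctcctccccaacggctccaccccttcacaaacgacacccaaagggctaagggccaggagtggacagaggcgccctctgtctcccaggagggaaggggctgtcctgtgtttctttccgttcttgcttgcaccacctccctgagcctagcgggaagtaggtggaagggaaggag
The S100a11 window holds 2 AP-1 matches, starting 136 and 38 bases before the start site, and the Anxa2 window holds 1, starting 95 bases before it. AP-1 letters occur in 7.80% of 32851 mouse promoter windows of this length and in no other member window of the table. The only TEAD match among the members is in Anxa1, 236 bases before the start, against 14.7% of all windows. Both S100a11 and Anxa2 hold 3 GC boxes, which occur in 35.7% of windows. The S100a13 window holds none of the 4 motifs, and neither do those of S100a6 and Anxa5. S100a6 and Anxa5 had log2 fold changes of 3.30 and 2.19 in miR-Ctrl mice. Outside the members, AP-1 letters occur in windows of Anxa10 and S100a7l2, which had 0 reads in every mouse. They also occur in a window of S100a16, whose log2 fold change in miR-Ctrl mice was -0.07. S100a10, Anxa3 and Anxa6 have no entry in the promoter table. These matches describe letters and not binding.

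Normalized counts are edgeR's CPM after TMM scaling over all 13 mice, so each mouse has 1 value. The depth was 12185333 to 19689037 counts per mouse in the table of miR-Ctrl mice and no BDL and similar in the others. The deposited table of both BDL groups leaves out miR-Ctrl mouse 3 and anti-miR mouse 2, and both stood apart here too. Mouse 3 of miR-Ctrl mice had the highest summed neutrophil markers of the ligated mice (84.3 normalized counts, against 15.5 to 39.6 in the other 7) and the lowest endothelial sum (28.7, against 43.1 to 123). Anti-miR mouse 2 had the highest hepatocyte sum (94080, against 43320 to 79850). Labels do not say whether mice came from the same litters or surgery days, and p-values measure the spread between these mice. Whole liver was sequenced, so more cells of a type and more RNA per cell cannot be told apart.

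**Figure D1:**
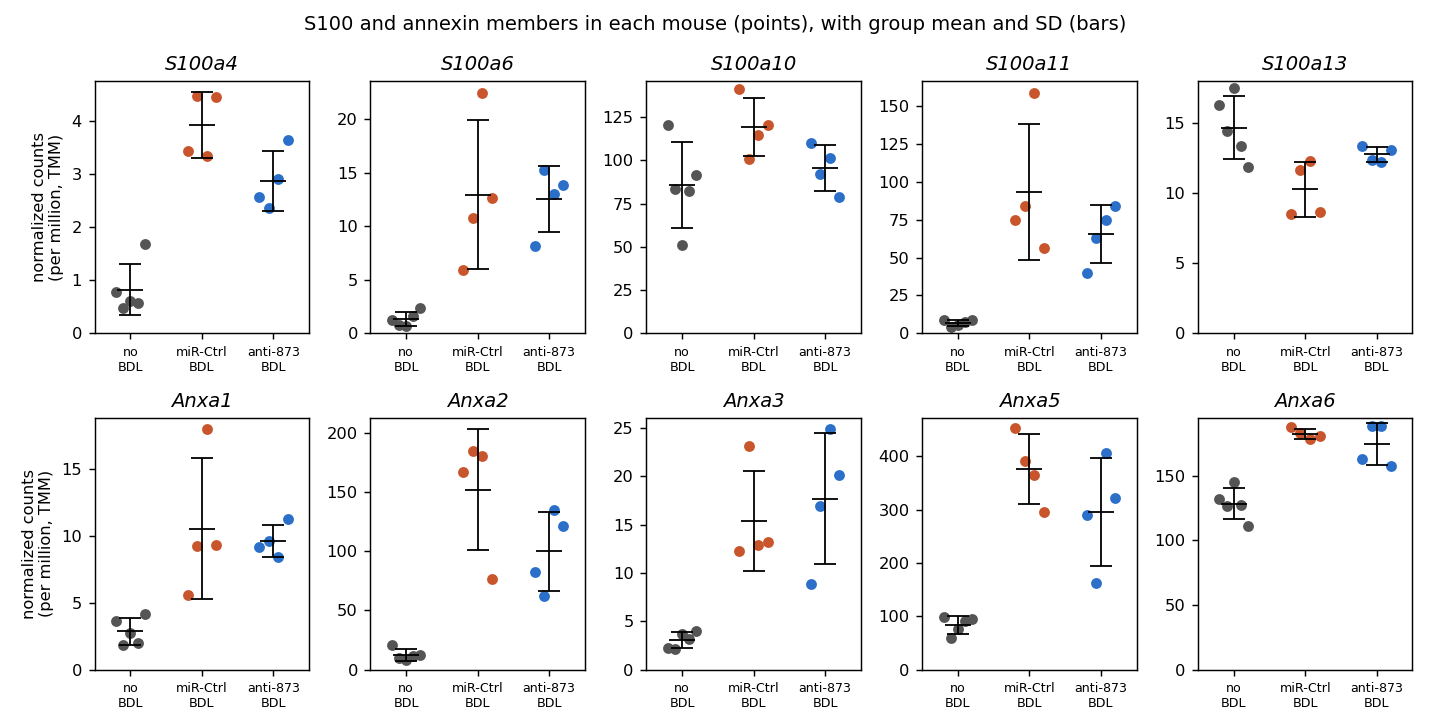
Normalized counts (CPM after TMM scaling) of the 10 members in each of 13 mice (points), with the mean and SD of each group (bars); anti-873 BDL stands for anti-miR-873-5p BDL and every axis starts at 0. The ligated mice all lie above all no BDL mice for S100a4, S100a6, S100a11 and the 5 annexins, while S100a10 and S100a13 overlap. The members were selected with these fold changes known, and the share of all genes without overlap was not counted.

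S100a11, a partner of annexin A1 that is also secreted, had fold changes among the largest of the members, and its place among them changed without miR-Ctrl mouse 3. S100a11 had 8.72, 4.001, 5.49, 7.31 and 8.42 normalized counts in no BDL mice 1 to 5. In miR-Ctrl mice 1 to 4 it had 74.8, 83.8, 159 and 56.1, and in anti-miR mice 1 to 4 39.5, 63.1, 74.7 and 84.1. Every ligated mouse was above every no BDL mouse, and miR-Ctrl mouse 3 was the highest. The group means were 6.79 ± 2.01 (SD, n = 5), 93.5 ± 45.3 (SD, n = 4) and 65.4 ± 19.2 (SD, n = 4). The log2 fold change against no BDL was 3.80 (SE 0.33) in miR-Ctrl mice and 3.29 (SE 0.27) in anti-miR mice, and 3.41 in miR-Ctrl mice without mouse 3. That mouse also had the highest summed macrophage and monocyte markers of the 8 (1349, against 295 to 965), and their part in the value was not tested.

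S100a6, or calcyclin, binds annexin A11 and the ubiquitin ligase adaptor CacyBP. In no BDL mice 1 to 5, S100a6 had 1.21, 0.762, 0.687, 1.56 and 2.304 normalized counts. The values were 5.9, 10.8, 22.5 and 12.7 in miR-Ctrl mice 1 to 4 and 8.19, 15.2, 12.97 and 13.8 in anti-miR mice 1 to 4. The groups of ligated mice did not overlap with no BDL, whose values rest on 8 to 29 reads per mouse, and miR-Ctrl mouse 3 was again the highest and mouse 1 the lowest ligated mouse. The log2 fold change was 3.30 (SE 0.43) in miR-Ctrl mice, 2.90 without mouse 3, and 3.27 (SE 0.33) in anti-miR mice.

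S100a4, which binds non-muscle myosin and is widely used as a marker of fibroblasts and of some macrophages, was the lowest S100 member per kb in both ligated groups. The no BDL mice 1 to 5 held 0.777, 0.476, 0.601, 0.575 and 1.67 normalized counts of S100a4. Counts of 3.43, 4.47, 3.33 and 4.44 were found in miR-Ctrl mice 1 to 4 and of 2.56, 2.35, 2.896 and 3.64 in anti-miR mice 1 to 4. No BDL mouse 5 was the highest of its group, at 21 reads against 5 to 9 in the others, and still lay below all ligated mice. Fitted log2 fold changes were 2.26 (SE 0.34) in miR-Ctrl mice and 1.81 (SE 0.36) in anti-miR mice. Without no BDL mouse 5 both were higher, at 2.698 and 2.25.

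S100a10 encodes the annexin A2 partner that does not need calcium and binds plasminogen at the cell surface. S100a10 had 121, 83.7, 50.7, 82.5 and 91.5 normalized counts in no BDL mice 1 to 5. In miR-Ctrl mice 1 to 4 it had 142, 101, 115 and 121, and in anti-miR mice 1 to 4 110, 92.1, 102 and 78.9. These groups overlapped, with no BDL mouse 1 (120.8) above every ligated mouse but miR-Ctrl mouse 1. Its log2 fold change was 0.50 (SE 0.21) in miR-Ctrl mice and 0.18 (SE 0.22) in anti-miR mice.

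S100a13, which takes part in the release of FGF1 and interleukin 1 alpha without a signal peptide, was the only member with a negative log2 fold change after TMM scaling, which turned positive with library size alone. In no BDL mice 1 to 5, S100a13 had 16.2, 14.4, 17.5, 13.3 and 11.8 normalized counts. The values were 8.49, 11.6, 12.2 and 8.63 in miR-Ctrl mice 1 to 4 and 13.3, 12.4, 12.2 and 13.1 in anti-miR mice 1 to 4. Of the 4 miR-Ctrl mice, 3 were below all no BDL mice, and mouse 3 was within their range. The log2 fold change was -0.49 (SE 0.16) in miR-Ctrl mice and -0.18 (SE 0.13) in anti-miR mice, but with scaling by library size alone both turned positive, at 0.29 and 0.64. That scaling moved the median log2 fold change over all genes from -0.01 to 0.79 and from -0.01 to 0.82, so S100a13 was below that median under either scaling. S100a1, the oppositely oriented neighbour that overlaps it, had the same signs.

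Anxa2 encodes a phospholipid and actin binding annexin that acts with S100A10 at the plasma membrane and in membrane repair. The no BDL mice 1 to 5 held 21.1, 9.81, 7.898, 11.6 and 12.2 normalized counts of Anxa2. Counts of 167, 184, 179.9 and 76.4 were found in miR-Ctrl mice 1 to 4 and of 82.2, 62.4, 134 and 121 in anti-miR mice 1 to 4. Ligated and unligated mice were clearly apart, and miR-Ctrl mouse 4 was far below the other 3 of its group. Group means were 12.5 ± 5.11 (SD, n = 5), 152 ± 50.8 (SD, n = 4) and 99.9 ± 33.4 (SD, n = 4). Log2 fold changes were 3.63 (SE 0.34) in miR-Ctrl mice, 3.85 without mouse 4, and 3.03 (SE 0.32) in anti-miR mice. They were 3.53 without miR-Ctrl mouse 3 and 3.19 without anti-miR mouse 2.

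Anxa5, the annexin used to stain phosphatidylserine on dying cells, was the most abundant member per kb after ligation. Anxa5 had 99.2, 59.1, 75.6, 91.9 and 95.03 normalized counts in no BDL mice 1 to 5. In miR-Ctrl mice 1 to 4 it had 453, 391, 365 and 296, and in anti-miR mice 1 to 4 290.4, 162, 406 and 322. All ligated mice exceeded all no BDL mice, and anti-miR mouse 2 was the lowest of them. Against no BDL the log2 fold change was 2.19 (SE 0.18) in miR-Ctrl mice and 1.84 (SE 0.26) in anti-miR mice, and 2.04 without that mouse.

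Anxa3, an annexin found in neutrophils and in some epithelia, was also higher in the ligated mice. In no BDL mice 1 to 5, Anxa3 had 2.25, 2.19, 3.69, 3.204 and 4.05 normalized counts. The values were 12.3, 23.2, 12.9 and 13.2 in miR-Ctrl mice 1 to 4 and 8.87, 16.9, 24.9 and 20.1 in anti-miR mice 1 to 4. The groups of ligated mice did not overlap with no BDL, and miR-Ctrl mouse 2 and anti-miR mice 3 and 4 were the highest. The log2 fold change was 2.34 (SE 0.26) in miR-Ctrl mice and 2.54 (SE 0.31) in anti-miR mice.

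Anxa1, a glucocorticoid-induced ligand of formyl peptide receptors, had 19 to 52 reads per no BDL mouse. The no BDL mice 1 to 5 held 3.63, 1.81, 2.75, 1.97 and 4.13 normalized counts of Anxa1. Counts of 5.599, 9.23, 17.99 and 9.29 were found in miR-Ctrl mice 1 to 4 and of 9.19, 9.63, 8.39 and 11.2 in anti-miR mice 1 to 4. Every ligated mouse was above every no BDL mouse, with miR-Ctrl mouse 3 the highest and mouse 1 the lowest. For Anxa1 the log2 fold change was 1.89 (SE 0.35) in miR-Ctrl mice, 1.51 without mouse 3, and 1.77 (SE 0.24) in anti-miR mice.

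Anxa6, an annexin with a longer core that links membranes to actin and to cholesterol handling, had the smallest change of the annexin members. Anxa6 had 132, 127, 145, 127 and 111 normalized counts in no BDL mice 1 to 5. In miR-Ctrl mice 1 to 4 it had 188, 183, 178 and 181, and in anti-miR mice 1 to 4 163, 188, 189 and 158. The miR-Ctrl mice lay in a narrow band, with an SD of 2.12% of the mean, against 9.37% in anti-miR mice and 9.48% in no BDL. No ligated mouse was within the no BDL range. Its log2 fold changes were 0.53 (SE 0.10) in miR-Ctrl mice and 0.47 (SE 0.12) in anti-miR mice.

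Levels of different genes were compared per kb of exon. In no BDL the highest member was S100a10, at 70.8 normalized counts per kb, followed by Anxa5 at 47.4 and Anxa6 at 43.8, and the ranges of neighbours in this order overlapped. After them came S100a13 at 20.5, S100a11 at 13.3 and Anxa2 at 3.36, and S100a4, Anxa1, S100a6 and Anxa3 were at 0.845 to 1.403. Anxa6 and S100a13 did not overlap, nor did S100a11 and Anxa2, while the other neighbours did. In miR-Ctrl mice the order was Anxa5 (212), S100a11 (183), S100a10 (98.6), Anxa6 (62.3) and Anxa2 (40.7), with S100a13, S100a6, S100a4, Anxa3 and Anxa1 between 3.62 and 14.3. The ranges of Anxa5 and S100a11 overlapped, as did those of S100a11 and S100a10, and Anxa6 and Anxa2 were apart from their neighbours. The order was the same in anti-miR mice, where Anxa5 had 166 and Anxa1 3.303 normalized counts per kb. The means of Anxa5 and S100a11 were thus above that of S100a10 in both ligated groups. The ranges of S100a11 and S100a10 overlapped in anti-miR mice too, and in mouse 1 S100a11 was the lower (77.4 against 90.8 per kb). The place of S100a11 also carries the uncertainty of its shared windows (41.1%).

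The ratio of Anxa2 to S100a10 per kb, the genes of the heteromeric complex, was 0.0469 ± 0.00719 (SD, n = 5) in no BDL, 0.423 ± 0.169 (SD, n = 4) in miR-Ctrl mice and 0.347 ± 0.137 (SD, n = 4) in anti-miR mice. It ran from 0.0381 to 0.0569 in the no BDL mice and from 0.206 to 0.594 in the ligated mice, with no overlap. S100a10 RNA thus exceeded Anxa2 RNA per kb in all 13 mice, by less after ligation.

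**Figure D2:**
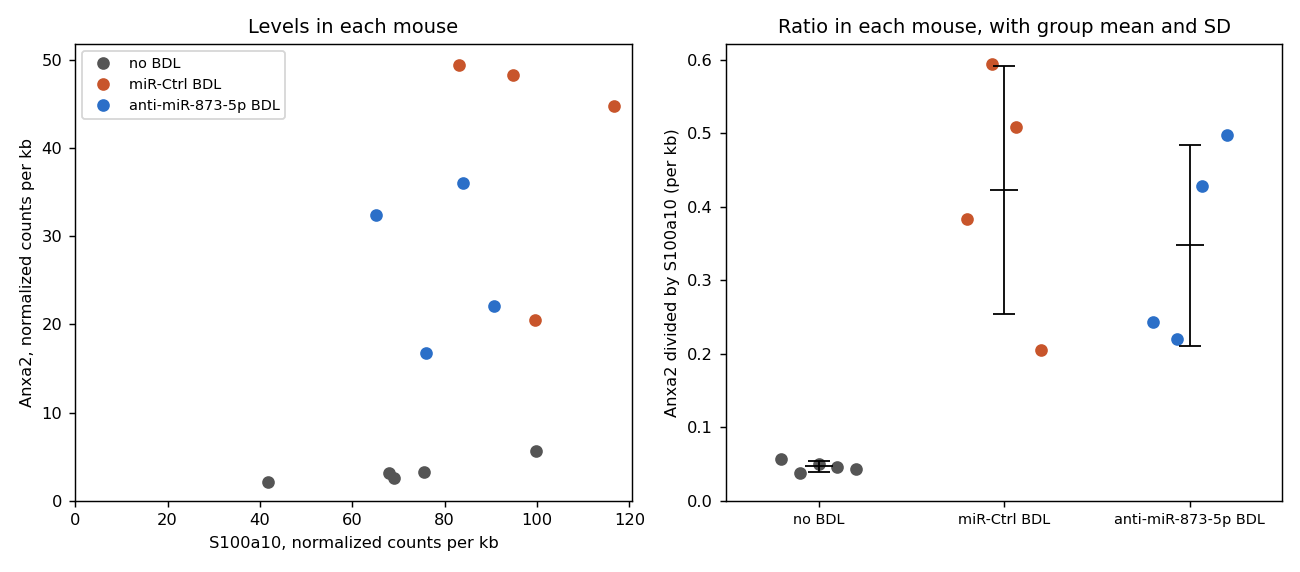
Left, Anxa2 against S100a10 in normalized counts per kb of exon, 1 point per mouse; right, their ratio in each mouse with the mean and SD of each group, and all axes start at 0. The no BDL mice have ratios of 0.0381 to 0.0569 and the ligated mice of 0.206 to 0.594, while S100a10 itself overlaps between groups.

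Across the 8 ligated mice, the log2 levels of the known pairs were compared over all pairings of mice by an exact two-sided permutation test, with Benjamini-Hochberg adjustment over 3 pairs. Anxa2 and S100a10 had a Pearson r of 0.23 (exact permutation p = 0.582, adjusted p = 0.582) and a Spearman rho of 0.17 (exact permutation p = 0.703, adjusted p = 0.703), with r = 0.28 without the 2 mice farthest from the median of Anxa2. For Anxa1 and S100a11 r was 0.58 (exact permutation p = 0.115, adjusted p = 0.258) and rho 0.45 (exact permutation p = 0.268, adjusted p = 0.703), but r was -0.076 without miR-Ctrl mouse 3 and 0.275 without the 2 farthest mice, so the relation rests on those mice. For Anxa11 and S100a6 r was 0.54 (exact permutation p = 0.172, adjusted p = 0.258) and rho 0.24 (exact permutation p = 0.582, adjusted p = 0.703), and r turned to -0.42 without the 2 mice farthest from the median of Anxa11. None of the 3 pairs passed the test. The points share libraries and scaling, and 30.0% of 12654 genes had an r with Anxa2 at least as high as that of S100a10, 13.1% with Anxa1 as high as S100a11 and 27.5% with Anxa11 as high as S100a6. The 5 genes with the highest r with Anxa2 over the same 8 mice, among 12655 genes averaging 10 counts or more, were Akap13 (0.95), Zfp384 (0.95), Tmem176b (0.95), Gm10814 (0.95) and Atxn1l (0.93). They are the top of a ranking of that many genes over few mice. Their r was not tested or checked with mice left out, so no relation is read from it.

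Calls are those of the edgeR quasi-likelihood fit to all genes of a table, at a Benjamini-Hochberg adjusted p under 0.05, and both comparisons share the no BDL mice. In miR-Ctrl mice against no BDL, 13 of 19 tested S100 and annexin genes were higher, 8 of the 10 members and 5 of 9 others, where 19.1% of 13072 genes were called higher. Lower were 2 genes, the member S100a13 and S100a1, where 16.6% of all genes were called lower. In anti-miR mice against no BDL, 13 of 20 tested genes were higher, again 8 members and 5 of 10 others, where 13.1% of 13130 genes were higher, and S100a1 alone was lower, where 8.44% of genes were. The members were chosen for these contrasts, so their count is printed beside the background and nothing is read from it. The median log2 fold change of the 9 other genes tested was 0.60 in miR-Ctrl mice and that of the 10 tested in anti-miR mice 0.62, against -0.01 over all genes in each. The counts and medians of the other genes include S100a8 and S100a9, and in anti-miR mice Anxa8. These genes passed the filter through the ligated mice, so nothing is read from those counts and medians either. The 10 genes of this family that passed no filter in either comparison with no BDL, S100a14, S100a3, S100a2, S100a5, S100a7a, S100a7l2, S100z, S100b, S100g and Anxa10, had at most 14 reads in any mouse.

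**Figure D3:**
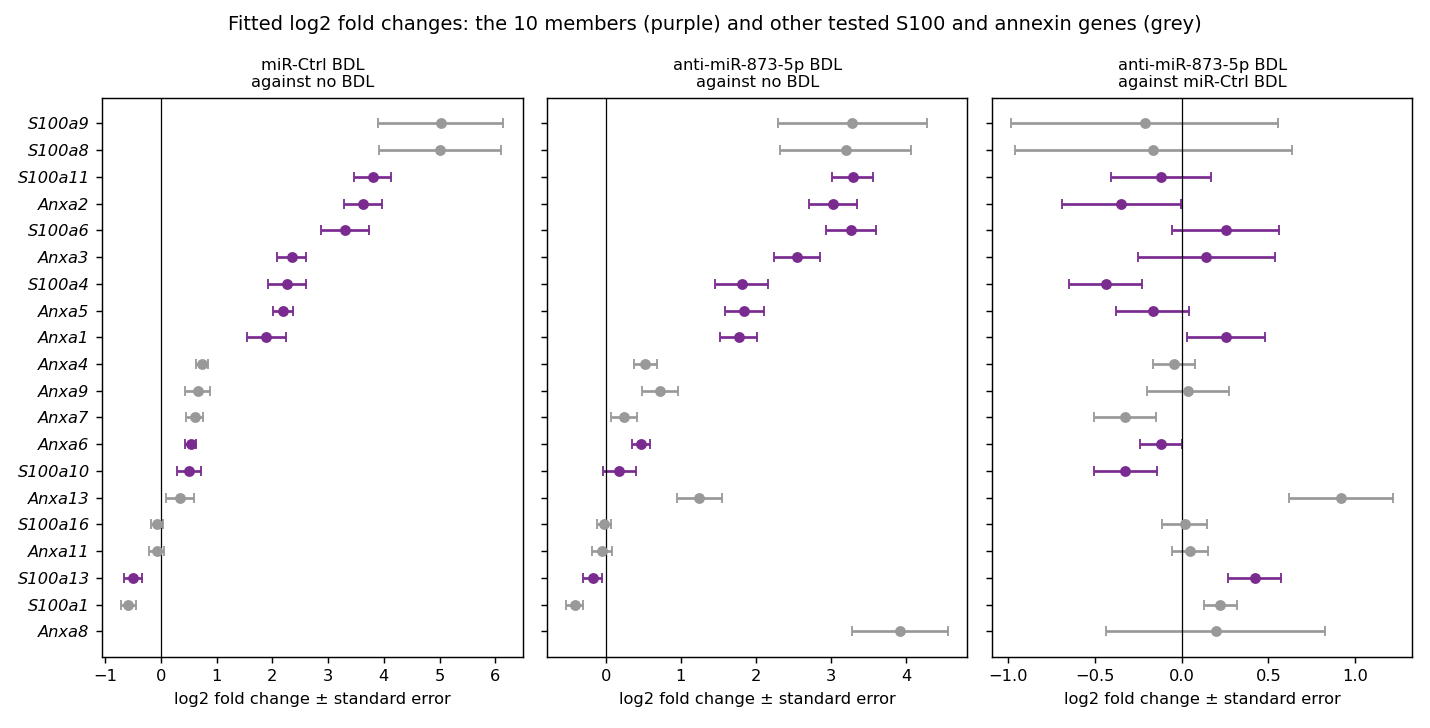
Fitted log2 fold changes (points) and their standard errors (bars) for the members (purple) and the other tested S100 and annexin genes (grey) in the 3 comparisons, each with its own horizontal scale; Anxa8 was below the filter in the first. Most genes lie right of 0 in both comparisons with no BDL, with S100a11 at 3.80 and 3.29, and the values lie around 0 between the BDL groups.

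Outside the members, the largest log2 fold changes in miR-Ctrl mice were those of S100a8 and S100a9, the neutrophil and monocyte proteins of calprotectin. In no BDL mice 1 to 5, S100a8 had 0.173, 0.191, 0.258, 0.329 and 2.94 normalized counts. The values were 2.95, 7.15, 76.3 and 18.8 in miR-Ctrl mice 1 to 4 and 4.81, 3.19, 3.08 and 17.6 in anti-miR mice 1 to 4. S100a9 ran in parallel, with 0.432, 0, 0.0858, 0.493 and 4.45 normalized counts in no BDL mice 1 to 5, 5.18, 11.1, 103 and 29.4 in miR-Ctrl mice 1 to 4 and 8.06, 3.87, 4.65 and 26.3 in anti-miR mice 1 to 4. Both genes were highest in miR-Ctrl mouse 3. No BDL mouse 5 was just below the lowest ligated mouse for S100a8 and within the ligated range for S100a9, and it also had the highest macrophage and monocyte sum (290.4, against 59.1 to 139.8) and Kupffer cell sum (500.2, against 79.2 to 236) of its group. The part of these cells in both genes was not tested. In miR-Ctrl mice the log2 fold change was 5.01 (SE 1.09, adjusted p = 0.00635) for S100a8 and 5.02 (SE 1.12, adjusted p = 0.00714) for S100a9, and without mouse 3 it was 3.58 (adjusted p = 0.00807) and 3.75 (adjusted p = 0.0107), while without no BDL mouse 5 it was 6.72 and 7.11. In anti-miR mice it was 3.19 (SE 0.87, adjusted p = 0.0288) and 3.28 (SE 0.99, adjusted p = 0.0412), and without mouse 4 it was 2.22 (adjusted p = 0.103) and 2.32 (adjusted p = 0.151), no longer past the threshold, while without no BDL mouse 5 it was 4.90 and 5.37. With 0 to 6 reads in no BDL mice 1 to 4, both genes passed the filter through the ligated mice, and their calls carry that limit. Leaving out any of no BDL mice 1 to 4 also ended the call of S100a8 (adjusted p = 0.0658 to 0.0684) and of S100a9 (0.0784 to 0.0931), and so did leaving out anti-miR mouse 3 for S100a9 (0.0658).

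S100a1, a calcium sensor of muscle and other tissues, had 75.4 ± 8.37 (SD, n = 5) normalized counts in no BDL, 49.6 ± 8.31 (SD, n = 4) in miR-Ctrl mice and 55.7 ± 5.4 (SD, n = 4) in anti-miR mice. The ligated mice, at 42.6 to 62.9, all lay below the no BDL mice, at 66.2 to 83.2. S100a1 fell in miR-Ctrl mice, with a log2 fold change of -0.58 (SE 0.13, adjusted p = 0.00623), and in anti-miR mice, with -0.41 (SE 0.11, adjusted p = 0.0281), but both turned positive with library size alone, at 0.20 and 0.40. The second call ended without no BDL mouse 1, 2 or 3 or anti-miR mouse 3 or 4 (adjusted p = 0.0578 to 0.0876). S100a16, at 16.6 to 22.2 normalized counts over all 13 mice, had log2 fold changes of -0.07 (SE 0.11, adjusted p = 0.656) and -0.02 (SE 0.09, adjusted p = 0.881), which also turned positive with library size alone.

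Of the other annexins, Anxa4, which is marked in bile duct and other epithelia, rose from 49.6 ± 5.88 (SD, n = 5) normalized counts to 81.1 ± 7.87 (SD, n = 4) in miR-Ctrl mice, a log2 fold change of 0.73 (SE 0.11, adjusted p = 0.00111). In anti-miR mice it was 70.02 ± 13.4 (SD, n = 4), with 0.53 (SE 0.15, adjusted p = 0.0356), a call that ended without any 1 of the no BDL mice or anti-miR mouse 3 or 4 (adjusted p = 0.0505 to 0.111). Anxa7, a widely expressed annexin, had 0.60 (SE 0.16, adjusted p = 0.0148) in miR-Ctrl mice and 0.24 (SE 0.17, adjusted p = 0.33) in anti-miR mice, and Anxa9 had 0.66 (SE 0.22, adjusted p = 0.0401) and 0.72 (SE 0.24, adjusted p = 0.0584). The Anxa9 call in miR-Ctrl mice ended without no BDL mouse 2, 4 or 5 or miR-Ctrl mouse 1, 2 or 4 (adjusted p = 0.0545 to 0.107). Anxa11 had -0.07 (SE 0.13, adjusted p = 0.696) and -0.05 (SE 0.13, adjusted p = 0.803), with positive values under library size alone (0.71 and 0.75), and 16.2% of its windows occur in other genes.

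Anxa8, an annexin of epithelia that is nearly silent in liver, had 0 to 4 reads per no BDL mouse. Anxa8 had 0.345, 0.0953, 0.172, 0 and 0.0795 normalized counts in no BDL mice 1 to 5. In miR-Ctrl mice 1 to 4 it had 0.482, 1.13, 4.41 and 2.698, and in anti-miR mice 1 to 4 1.38, 3.87, 0.905 and 2.604. It was below the filter in miR-Ctrl mice against no BDL, and in anti-miR mice it passed only through the ligated mice, so its values are given without a test. Anxa13, an annexin of intestinal and other epithelia, had 1.45 ± 0.319 (SD, n = 5) normalized counts in no BDL, 1.79 ± 0.435 (SD, n = 4) in miR-Ctrl mice and 3.37 ± 1.31 (SD, n = 4) in anti-miR mice. Its log2 fold change was 0.34 (SE 0.25, adjusted p = 0.328) and 1.24 (SE 0.30, adjusted p = 0.0184), and the second call was lost without mouse 3 (adjusted p = 0.0641) or mouse 4 (adjusted p = 0.0568) of its group.

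Along chromosome 3, over the first 182 kb of the cluster, the order was S100a1 and S100a13, with negative log2 fold changes under TMM scaling that turned positive with library size alone (0.20 and 0.29 in miR-Ctrl mice, 0.40 and 0.64 in anti-miR mice), then S100a14, S100a16, S100a3 and S100a2, all near 0 or with too few reads, and then S100a4, S100a6, S100a8 and S100a9, with positive ones, interleaved with S100a5 and S100a7a, which had at most 1 read per mouse. Further along, S100a11 and S100a10 start at 3009 and 3044 kb from the start of S100a1, and their log2 fold changes in miR-Ctrl mice were 3.80 and 0.50.

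**Figure D4:**
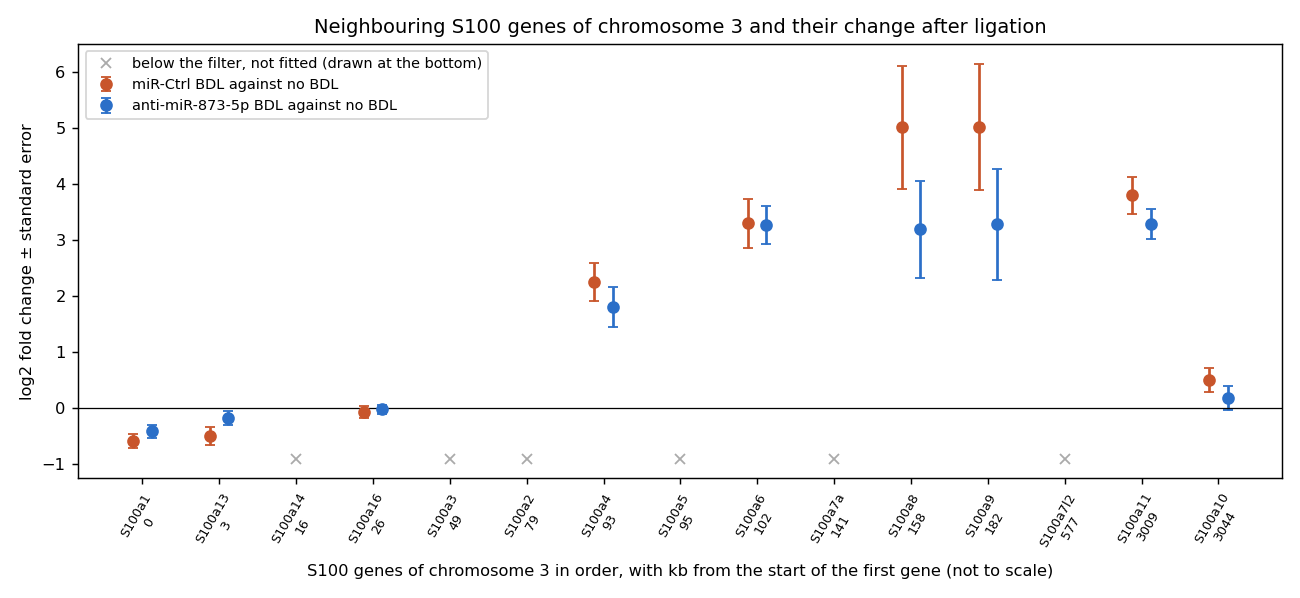
Log2 fold changes (points) with standard errors (bars) of the S100 genes of chromosome 3 in both comparisons with no BDL, in the order of the genes, with the distance in kb from the start of the first gene under each name. Crosses at the bottom mark genes below the filter; values run from -0.58 in S100a1 to 5.02 in S100a9 in miR-Ctrl mice.

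Receptors and extracellular partners of both families were followed in a list of 10 genes. In miR-Ctrl mice against no BDL, 6 of 8 tested genes were higher and 1 was lower, with a median log2 fold change of 1.98, and in anti-miR mice 5 of 9 were higher and 0 lower, with a median of 1.43. Over all genes 19.1% were higher and 16.6% lower in the first comparison and 13.1% and 8.44% in the second, with a median of -0.01 in each. The list was chosen with earlier results of these data known, so nothing is read from its counts and medians. Of the called genes, Plat, the tissue plasminogen activator, and Plaur, the urokinase receptor, had 0 to 5 and 1 to 13 reads per no BDL mouse and passed the filter through the ligated mice, so they are given as levels. Fpr2 and Fpr1, receptors of annexin A1, had log2 fold changes in miR-Ctrl mice of 2.73 (SE 0.64, adjusted p = 0.00897) and 2.14 (SE 0.57, adjusted p = 0.0163), and in anti-miR mice they had 1.01 (SE 0.58, adjusted p = 0.241) and 1.11 (SE 0.57, adjusted p = 0.186). Fpr2 was highest in miR-Ctrl mouse 3, and without that mouse the first value was 1.98. With 5 to 28 reads per no BDL mouse, Fpr2 also passed the filter through the ligated mice, and its call carries that limit. Tlr4, called in miR-Ctrl mice, and Plau, called in both groups, had 4 to 22 and 5 to 18 reads per no BDL mouse. Ager, called in anti-miR mice, had 3 to 8, and the counts of this list carry the limit of low reads as well. Plat had at most 0.411 normalized counts in no BDL and 2.58 to 11.2 in the ligated mice. Plaur had 0.0953 to 1.03 in no BDL, 3.73 to 18.7 in miR-Ctrl mice, again highest in mouse 3, and 1.81 to 7.36 in anti-miR mice. Plg, plasminogen itself, fell in miR-Ctrl mice, with -0.54 (SE 0.15, adjusted p = 0.0181), but was 0.26 higher with library size alone, and the call ended without miR-Ctrl mouse 1 (adjusted p = 0.0555).

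Intracellular and membrane repair partners were a list of 12 genes, all tested. In miR-Ctrl mice 6 were higher and 1 lower, with a median log2 fold change of 0.54, and in anti-miR mice 4 were higher and 1 lower, with a median of 0.25, beside all-gene shares of 19.1% and 16.6%, then 13.1% and 8.44%, and a median of -0.01 in each. This list too was chosen with earlier results of these data known, and nothing is read from its counts and medians. Myof, a ferlin of membrane repair, had 2.59 (SE 0.38, adjusted p = 0.000915) and 2.79 (SE 0.43, adjusted p = 0.00326), and Myh9, the non-muscle myosin heavy chain bound by S100A4, had 1.41 (SE 0.14, adjusted p = 0.000184) and 1.11 (SE 0.23, adjusted p = 0.00947). Ahnak, a scaffold bound by the annexin A2 and S100A10 complex, rose by 1.27 (SE 0.22, adjusted p = 0.00241) and 1.51 (SE 0.20, adjusted p = 0.00165). Fgf1, which S100A13 helps to release, fell with -1.36 (SE 0.16, adjusted p = 0.000352) and -1.04 (SE 0.18, adjusted p = 0.00454), but with library size alone these were -0.58 and -0.20, the second no longer past the threshold (adjusted p = 0.415). Il1a, the other cargo of that route, had 1.07 (SE 0.35, adjusted p = 0.0384) and 0.19 (SE 0.35, adjusted p = 0.729), and the first call ended without no BDL mouse 1, 2 or 4 or miR-Ctrl mouse 2, 3 or 4 (adjusted p = 0.0714 to 0.0869).

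The labelled tissue was checked by hepatocyte markers, whose 7 measured genes summed to 118400 to 136300 normalized counts in no BDL and to 43320 to 94080 in the ligated mice. Markers of other liver cells were counted in the same fits. In miR-Ctrl mice, 6 of 7 tested cholangiocyte markers, 7 of 9 stellate cell and fibroblast markers, 8 of 8 macrophage and monocyte markers, 2 of 5 Kupffer cell markers, 1 of 2 neutrophil markers and 3 of 3 mesothelial markers were called higher. The mesothelial markers passed the filter only through the ligated mice. So did Cftr, Krt19, Cx3cr1 and Itgam, with 0 to 11, 6 to 21, 3 to 17 and 5 to 46 reads per no BDL mouse. Krt7 and Ccr2 were low in no BDL as well, at 7 to 14 and 9 to 43 reads per mouse. The cholangiocyte and macrophage counts carry that limit too. None of 6 endothelial markers and of 1 lymphocyte marker was called higher, and 5 of 8 hepatocyte markers were lower. Over all genes, 19.1% were called higher and 16.6% lower in this comparison. In anti-miR mice the counts were 6 of 7, 7 of 9, 5 of 8, 1 of 5, 1 of 2 and 3 of 3, with 1 of 6 endothelial and 3 of 8 hepatocyte markers lower. There, 13.1% of all genes were called higher and 8.44% lower. The marker lists were chosen with earlier results of these data known, so nothing is read from their counts.

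Summed over the 7 measured cholangiocyte markers, the level was 28.4 to 38.0 normalized counts in no BDL, 63.2 to 104 in miR-Ctrl mice and 57.5 to 127 in anti-miR mice. The 8 macrophage and monocyte markers summed to 59.1 to 290.4, 416 to 1349 and 295 to 763, and the 5 Kupffer cell markers to 79.2 to 500.2, 524 to 1217 and 274 to 965. The sum of 1349, in miR-Ctrl mouse 3, held 1025 from Cd14. The 6 measured stellate cell and fibroblast markers summed to 134 to 194, 258 to 791 and 242 to 983, and the 6 measured neutrophil markers to 8.38 to 15.5, 15.9 to 84.3 and 15.6 to 39.6. Endothelial sums (6 markers) were 76.9 to 114, 28.7 to 123 and 43.1 to 112, and lymphocyte sums (6 markers) 2.07 to 4.61, 0.833 to 6.96 and 0.455 to 4.47. Mesothelial markers, from the covering layer of the liver surface, had 0 to 0.172 in no BDL, with Krt14 at 0 in every no BDL mouse, 11.2 to 51.1 in miR-Ctrl mice and 7.54 to 43.1 in anti-miR mice. The part of these cells in the values of S100 and annexin genes was not tested.

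Anti-miR mice were compared with miR-Ctrl mice in the deposited table of 3 mice per group. None of 20 tested S100 and annexin genes passed the quasi-likelihood test, and 0 of 13746 genes did (0.0%). DESeq2's Wald test called 0 of the 20 genes and 30 of all genes. At an unadjusted p under 0.05, 2 of the 20 and 863 of all genes remained. The median log2 fold change was -0.12 over the 10 members and 0.03 over the 10 others, against 0.01 over all genes. With 3 mice against 3 the differences of members ran from -0.44 (SE 0.21) for S100a4 over -0.35 (SE 0.34) for Anxa2 and -0.33 (SE 0.18) for S100a10 to 0.42 (SE 0.15) for S100a13. S100a13 had 13.3, 12.19 and 13.1 normalized counts in anti-miR mice 1, 3 and 4 and 8.49, 11.6 and 8.63 in miR-Ctrl mice 1, 2 and 4. These 3 mice per group did not overlap, and the share of all genes without overlap was not counted. The left-out miR-Ctrl mouse 3 had 12.24, above anti-miR mouse 3, so with all 4 mice the groups overlapped. The remaining members were at -0.17 (SE 0.21) for Anxa5, -0.12 (SE 0.29) for S100a11, -0.12 (SE 0.12) for Anxa6, 0.14 (SE 0.40) for Anxa3, 0.25 (SE 0.31) for S100a6 and 0.26 (SE 0.22) for Anxa1, and the mice of both groups overlapped for each of them. Among the other genes Anxa13 had the lowest p, with a log2 fold change of 0.92 (SE 0.30, adjusted p = 0.757) in edgeR, and with adjusted p from 0.3 to 1.0 with 1 mouse left out. With all 4 mice of each group the calls stayed at 0, and the log2 fold changes of Anxa1 and S100a6 changed sign, to -0.12 and -0.035. Leaving out 1 mouse turned the sign of S100a6 (-0.0062 without miR-Ctrl mouse 1), S100a11 (0.0075 without miR-Ctrl mouse 2 and 0.14 without anti-miR mouse 1) and Anxa3 (-0.022 without miR-Ctrl mouse 1 and -0.17 without anti-miR mouse 3). A difference that misses the threshold does not show that the groups had the same level.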

How the data were processed

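Liver RNA of 13 mice was sequenced as single reads of 50 bases from an unstranded library kit. The authors deposited raw gene counts in 3 tables, made, by the submitters' processing notes, with CASAVA 1.8.2, FastQC, Trim Galore and TopHat on mm10. The counting program and annotation were not given in the sources used here. Genes were tested in each table with edgeR 4.0.16 in R 4.3.3 (TMM scaling, filterByExpr, quasi-likelihood test, Benjamini-Hochberg adjustment over all genes tested, adjusted p under 0.05), and limma 3.58.1 was loaded with it. The table of both BDL groups holds 3 mice per group. Values per mouse are CPM from edgeR on the 22246 genes whose counts were the same in all tables in which a mouse appears. Levels between genes are per kb of GENCODE M21 exon. Self-tests on simulated counts were run first. DESeq2 1.42.0, other filters and scalings, a replicate block and leaving out each mouse were alternatives. Members, partner and marker lists were chosen with earlier results of these data known. Named genes are all members, all other S100 and annexin genes that passed the filter, the 4 partner genes per list and direction with the largest called fold change in miR-Ctrl BDL, and the 5 genes most like Anxa2. Other partner genes are named only for their low reads.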

Additional observations from a re-analysis of the deposited data

Results flagged for a closer look

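For 66 sets of values, each 1 S100 or annexin gene in 1 group of mice, the gap of the highest or lowest mouse to its neighbour was compared with the range of the group, and 9 sets exceeded the 95% limit of Dixon's test. Chance gives about 1 in 20. The highest mouse stood apart for S100a4 (1.67 normalized counts), S100a8 (2.94) and S100a9 (4.45), all in no BDL mouse 5, for S100a8 in anti-miR-873-5p BDL mouse 4 (17.6), for Anxa3 in miR-Ctrl BDL mouse 2 (23.2), for Anxa11 in miR-Ctrl BDL mouse 3 (51.04) and for S100g in anti-miR-873-5p BDL mouse 2 (1.06, from 14 reads). The lowest mouse stood apart for Anxa2 in miR-Ctrl BDL mouse 4 (76.4, against 166.9 to 184) and for Anxa7 in miR-Ctrl BDL mouse 2 (125.5).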

How the results depend on the processing

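Over the 9 counts and correlations, library size alone gave 0 lower genes in place of 2 in miR-Ctrl BDL, and 20 higher and 0 lower genes in place of 13 and 1 in anti-miR-873-5p BDL. It moved the median of all genes to 0.79 and 0.82, with 9360 genes higher and 275 lower in miR-Ctrl BDL and 10063 and 131 in anti-miR-873-5p BDL, and turned positive the log2 fold changes of S100a13 (0.29), S100a1 (0.20), S100a16 (0.74), Anxa11 (0.71) and Plg (0.26) in miR-Ctrl BDL and of S100a13 (0.64), S100a1 (0.40), S100a16 (0.80) and Anxa11 (0.75) in anti-miR-873-5p BDL. With 1 mouse left out, lower genes numbered 1 to 2 in miR-Ctrl BDL and 0 to 1 in anti-miR-873-5p BDL, r of Anxa1 and S100a11 ran from -0.076 to 0.80, and the log2 fold change of Anxa11 in anti-miR-873-5p BDL from -0.181 to 0.0101. Without both mice left out of the table of the BDL groups, r was -0.016 for Anxa2 and S100a10, -0.063 for Anxa1 and S100a11 and -0.42 for Anxa11 and S100a6, which was also -0.42 without the 2 mice farthest from the median, and centring on group means gave -0.18 for Anxa2 and S100a10. Labels do not say whether mouse numbers mark pairs, and the main fits assumed none. With the number as a replicate block miR-Ctrl BDL had 12 genes called up and 2 called down, anti-miR-873-5p BDL had 11 and 0, and there were 0 between BDL groups. Deviations of same-numbered mice correlated at -0.392 to 0.577 between BDL groups. The causes of these changes were not tested beyond the scaling. Genes with under 15 reads per mouse, such as S100a14, S100b and S100g, were too shallow to compare.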
